A study of Mus musculus with 12 samples.

Results

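The 11 laminin chains and 26 integrin subunits measured by RNA-seq in the cochlear epithelium of mouse embryos are described here in Esrp1-/- embryos (knockout) and wild-type embryos (control). The 37 genes were chosen by symbol, as the Lama, Lamb and Lamc genes and the integrin alpha and beta subunit genes, out of 22869 gene symbols, and the rule uses no measured value. Both groups were C57BL/6 embryos at embryonic day 16.5, with 3 embryos in each group. ESRP1 binds RNA and directs the choice of exons in epithelial cells. The labels name no cell type or promoter to which the loss of Esrp1 was limited. Epithelium of the whole cochlea was dissected by hand and treated with collagenase P to take off the mesenchyme around it. The pair of cochleae from an embryo was pooled, and each embryo, the biological replicate, gave 2 libraries that stand together in 1 column of counts.

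Laminins are secreted trimers of an alpha, a beta and a gamma chain that polymerise into the sheet at the base of epithelia, the basement membrane. Integrins are pairs of an alpha and a beta subunit that span the cell membrane, bind laminins, collagens or fibronectin outside and connect to the cytoskeleton inside. In the inner ear the basement membrane lies between the epithelium of the cochlear duct and the tissue around it, and integrin alpha 8 is known from mice to be needed for normal hair cell stereocilia.

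Between 12547301 and 18473139 reads fell on genes in knockout embryos and between 16411205 and 21568516 in control embryos. Esrp1 itself had 27.2, 34.3 and 39.1 CPM (read counts set relative to library sizes scaled by TMM) in knockout embryos 1, 2 and 3, against 197, 102 and 118 CPM in control embryos 1, 2 and 3, so that the groups did not overlap. Ddx3y, a Y-linked gene, had 95 and 81.9 CPM in knockouts 2 and 3 and under 1 CPM in the other 4 embryos, so that sex was unequal between the groups. The summed level of 7 epithelial markers, among them Epcam and Cdh1, was 1229 to 1559 CPM in knockouts and 922 to 1791 CPM in controls, and no marker was at 0. Markers of periotic mesenchyme, which the collagenase step was meant to take off, summed to 2543 to 2760 CPM in knockouts and 1342 to 2757 CPM in controls. Control 1 stood apart from the other controls. It had 1.77 times their mean of epithelial markers, 0.52 times that of mesenchymal markers, 0.41 times that of leukocyte markers and 0.14 times that of neuronal markers. No marker of the 9 cell type lists passed edgeR's quasi-likelihood test or DESeq2 at adjusted p 0.05. In whole tissue such as this, fewer cells of a type and less RNA per cell cannot be told apart.

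Of the 37 genes, 34 had enough reads to be tested, namely all 11 laminins and 23 of the 26 integrins. None passed the threshold of adjusted p 0.05 in edgeR's quasi-likelihood test, in which 0.149% of the 14717 genes tested passed it (12 higher and 10 lower in the knockout). At an unadjusted p under 0.05 in that test there were 2 of the 34, Itga4 and Itga5, where 4.77% of all genes stood. These were also the 2 whose knockout and control embryos did not overlap, a separation that 9.84% of all genes showed. DESeq2 called Itga4 alone among 35 members with an adjusted p, and 1.04% of all genes. In the authors' deposited table, which tests transcript rows, 1 of the 43 rows of these genes had an FDR under 0.05, again that of Itga4, against 0.775% of all rows.

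The log2 fold changes of the 34 genes, knockout over control, were positive for 19 and negative for 15. Their median was 0.03, beside a median of 0.00 over all genes tested, and it was -0.02 for the laminins and 0.07 for the integrins. With Xist as a covariate, for the unequal sex of the groups, the median of the 34 was -0.24. The median over all genes was not taken for that fit, so a shift of these members cannot be told apart from one of all genes. Knockout 1 was the only knockout with as little Ddx3y as the controls, so that fit sets mainly this embryo against them. It cannot separate sex from whatever else set knockout 1 apart. Without the covariate, the median size of the log2 fold change was 0.20 for the 34 genes and 0.13 for all genes. For 23 of the 34 the whole 95% interval lay within a 2-fold change either way, which held for 79.0% of all genes. Estimated fold changes over 1.5 either way were seen for 4 members, Itga4, Itga2b, Itgb7 and Itgb2, and the last 3 of these had wide intervals.

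**Figure D1:**
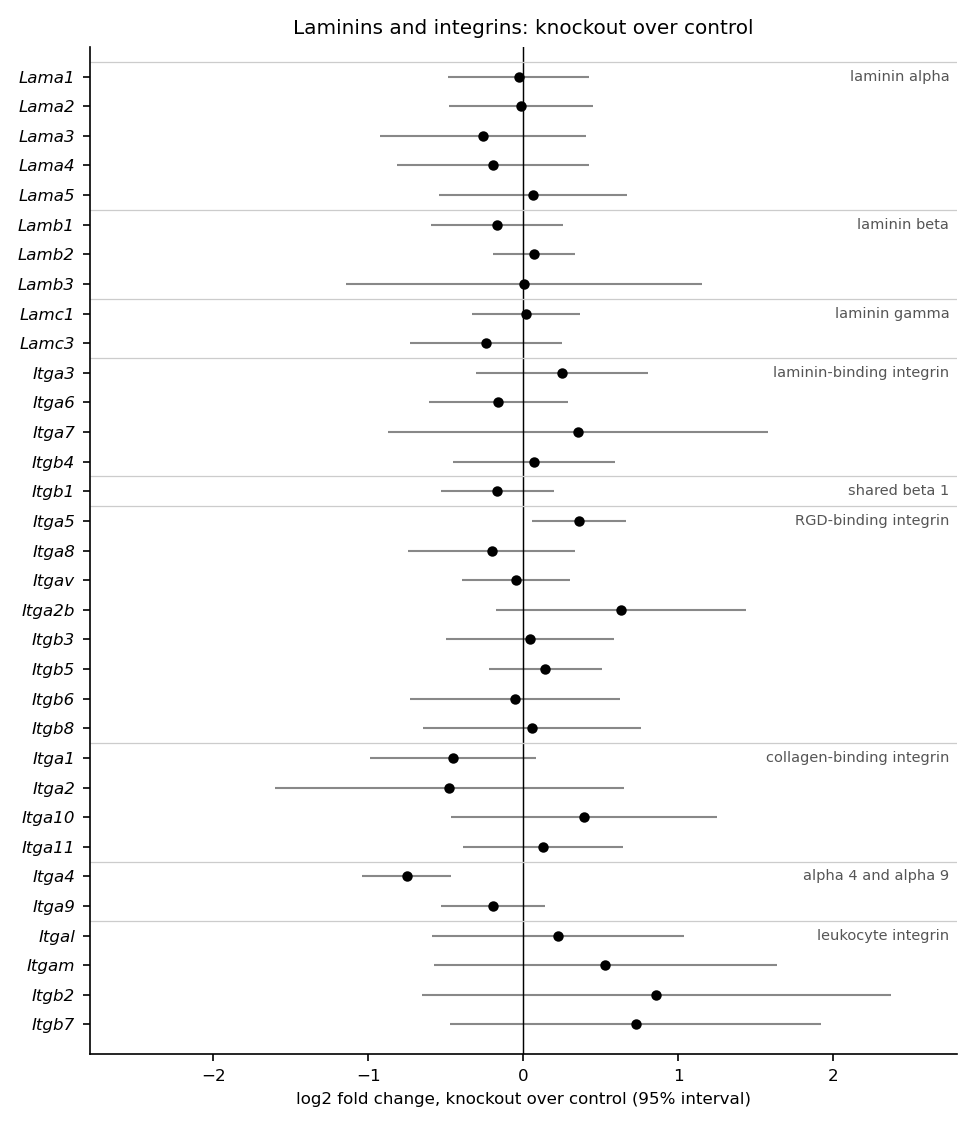
Log2 fold change (knockout over control, x axis) of laminins and integrins tested, with bars for the 95% interval of edgeR's quasi-likelihood fit. Itga4 (-0.75) and Itga5 (0.36) are the members whose intervals leave out 0, and the widest intervals belong to genes with few reads such as Itgb2 and Lamb3.

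Itga4 (chromosome 2, 79255426 to 79333114, mm10) had the smallest p of the members. Its product, integrin alpha 4, pairs with beta 1 or beta 7 and binds fibronectin and VCAM1. The promoters of Itga4 and of Itga5, which encodes the fibronectin receptor subunit alpha 5 and had the second smallest p, are shown because these were the members whose groups did not overlap. Each runs from 250 bases before to 50 bases after the start site (RefSeq, GRCm38.p6, 5′ to 3′ on the gene's strand), with GGGCGG (the GC box, on either strand) and CANNTG (the E-box) in capitals. Itga4 lies on the plus strand at chr2:79255176-79255475 and Itga5 on the minus strand at chr15:103366742-103367041.
Itga4: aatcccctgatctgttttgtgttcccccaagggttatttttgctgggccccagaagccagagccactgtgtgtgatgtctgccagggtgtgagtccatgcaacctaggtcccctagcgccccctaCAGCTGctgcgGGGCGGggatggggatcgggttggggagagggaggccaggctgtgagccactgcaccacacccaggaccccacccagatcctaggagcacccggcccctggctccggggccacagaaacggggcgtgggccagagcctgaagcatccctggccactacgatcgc
Itga5: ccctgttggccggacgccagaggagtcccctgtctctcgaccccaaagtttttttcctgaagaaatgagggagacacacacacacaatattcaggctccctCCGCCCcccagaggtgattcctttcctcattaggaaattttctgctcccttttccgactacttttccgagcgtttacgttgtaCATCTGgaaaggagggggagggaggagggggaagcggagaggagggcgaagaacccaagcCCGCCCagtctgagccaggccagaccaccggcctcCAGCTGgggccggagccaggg
The Itga4 window held 1 GC box, beginning 114 bases before the start site, and 1 E-box, beginning 125 bases before it. The Itga5 window held 2 GC boxes, beginning 149 and 6 bases before the start site, and 2 E-boxes. TATAAA was in neither window. Of 32851 mouse promoters of this length in the RefSeq table, 35.7% held GGGCGG, 72.3% held CANNTG and 13.6% held TATAAA. Promoters were found for 23 of the 37 members, 26 windows in all, of which 12 held a GC box, 22 an E-box and 0 a TATAAA.

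Itga4 had 38.7, 42.7 and 47.0 CPM in knockout embryos, against 77.0, 71.7 and 67.7 CPM in control embryos. Every knockout embryo lay below every control embryo, and the spread within each group was small beside the gap. Itga4 averaged 42.8 ± 4.12 CPM in knockouts and 72.1 ± 4.63 CPM in controls (SD, n = 3 each). The log2 fold change was -0.75 ± 0.13 (SE), with a 95% interval of -1.04 to -0.46 and an adjusted p of 0.113 in edgeR's quasi-likelihood test. DESeq2 gave a log2 fold change of -0.77 and an adjusted p of 0.000348, and the authors' deposited table gives -0.82 with an FDR of 0.00706. With 3 embryos a side, the exact permutation test (two-sided) reached p = 0.10, its lower limit for groups of this size. Without both embryos numbered 1, in which Fos, an immediate early gene, was high (64.6 CPM in knockout 1 and 153 CPM in control 1, at most 7.27 CPM elsewhere), edgeR's adjusted p for Itga4 was 0.0276 with a log2 fold change of -0.65. Knockout 1, which like the controls had almost no Ddx3y, had the lowest Itga4 level, and with Xist as a covariate the log2 fold change was -0.91 (adjusted p = 0.08, edgeR's quasi-likelihood test). Itga4 overlaps Cerkl on the opposite strand by 127 bases. Cerkl had 150 reads in all, against 6073 of Itga4, and whether the counting used strand is not given in the sources used here. Per unit of epithelial markers Itga4 was also separated, at 29.7 to 34.8 CPM per 1000 CPM of markers in knockouts and 43.0 to 77.8 in controls.

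The partners and ligands of alpha 4 were measured alongside it. Itgb7 had 0.762, 0.644 and 0.734 CPM in knockouts, against 0.313, 0.272 and 0.701 CPM in controls, which is 33 reads over the knockouts and 24 over the controls. With so few reads its log2 fold change of 0.72 ± 0.52 had an interval from -0.47 to 1.92. Vcam1 had a log2 fold change of 0.12 ± 0.16 and Fn1, the fibronectin gene, of -0.35 ± 0.20 (SE; adjusted p = 0.994 for both, edgeR's quasi-likelihood test). Itga9, whose product is the nearest relative of alpha 4 and binds tenascin C, had 56.0, 68.4 and 76.3 CPM in knockouts, against 84.5, 70.2 and 75.4 CPM in controls. The Itga9 groups overlapped, with a log2 fold change of -0.20 ± 0.15. Tnc, which encodes tenascin C, averaged 174 ± 17.6 CPM in knockouts and 265 ± 78.1 CPM in controls (SD, n = 3 each), with a log2 fold change of -0.60 and an adjusted p of 0.801 in edgeR's quasi-likelihood test.

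Among the integrins that bind the RGD peptide of fibronectin, vitronectin and related ligands, Itga5 (chromosome 15, 103344286 to 103366791, mm10) had the smallest p. It had 64.3, 62.9 and 56.7 CPM in knockouts, against 41.6, 52.7 and 49.3 CPM in controls. Every knockout embryo lay above every control embryo, with knockout 3 and control 2 close to each other. The log2 fold change was 0.36 ± 0.13 (SE), with a 95% interval of 0.05 to 0.66 and an adjusted p of 0.852 in edgeR's quasi-likelihood test. DESeq2 gave Itga5 a log2 fold change of 0.34 and an adjusted p of 0.881. The authors' deposited edgeR comparison gives 0.27 with an unadjusted p of 0.169. Both alpha 4 and alpha 5 are fibronectin receptor subunits that pair with beta 1. On the FPKM scale, which allows for transcript length, the ratio of Itga5 to Itga4 was 3.37, 3.04 and 2.43 in knockouts and 1.12, 1.5 and 1.5 in controls. That ratio sets side by side the members with the smallest p values, so it is a description and was not tested.

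**Figure D2:**
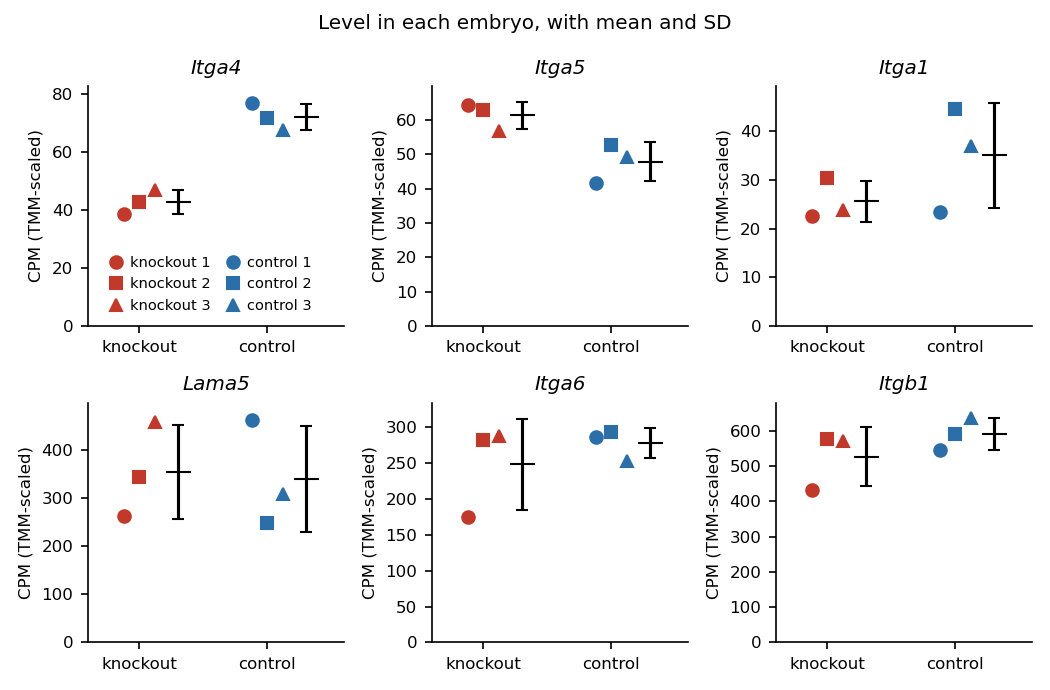
Level in CPM (y axes from 0, a panel per gene) of 6 named genes in the 3 knockout and 3 control embryos, with a point per embryo and, beside the points, the group mean with bars of 1 SD. For Itga4 all knockout points lie below all control points, for Itga5 all lie above, and for the other members drawn the groups overlap.

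Itga8, whose product pairs with beta 1 and binds nephronectin, had 190, 284 and 388 CPM in knockouts, against 346, 298 and 348 CPM in controls. Knockout 1 was the lowest embryo and knockout 3 the highest, so the range of the knockouts enclosed that of the controls. The log2 fold change was -0.20 ± 0.24 (95% interval -0.74 to 0.33). Itga8 overlaps the transcript E030013I19Rik on the opposite strand by 372 bases, which had 1319 reads in all against 32137 of Itga8. Npnt, the nephronectin gene, had 99.3, 198 and 243 CPM in knockouts, against 129, 80.3 and 96.6 CPM in controls, with a log2 fold change of 0.82 ± 0.31 (SE) and an adjusted p of 0.866 in edgeR's quasi-likelihood test. Knockout 1 was low for the receptor subunit and for its ligand alike, and lay inside the control range for Npnt.

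Itgav, the alpha subunit shared by several RGD-binding pairs, had 87.1, 116 and 123 CPM in knockouts, against 105, 115 and 117 CPM in controls. Its log2 fold change was -0.05, with a 95% interval of -0.40 to 0.30. Of the beta subunits that pair with it, Itgb5 had the highest FPKM after Itgb1. Itgb5 had 157, 118 and 137 CPM in knockouts, against 146, 109 and 118 CPM in controls (log2 fold change 0.14 ± 0.16). Itgb6, an epithelial subunit known for activating latent TGF-beta, had 17.8, 29.9 and 43.4 CPM in knockouts, against 37.1, 24.5 and 32.9 CPM in controls. Itgb6 differed more among the knockouts than among the controls, and its log2 fold change of -0.05 had an interval from -0.73 to 0.63. Itgb8 and Itgb3, a further activator of TGF-beta and the beta subunit of the vitronectin receptor, had log2 fold changes of 0.05 and 0.04. Itga2b, the platelet fibrinogen receptor subunit, had 8.16, 5.42 and 5.87 CPM in knockouts, against 5.89, 2.40 and 4.31 CPM in controls, with a log2 fold change of 0.63 (95% interval -0.18 to 1.44). The summed level of 5 platelet markers was 4.56 to 8.69 CPM in knockouts and 4.89 to 6.84 CPM in controls, and 1 of the 5, Pf4, had enough reads to be tested.

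Itgb1, the beta subunit that most laminin, collagen and fibronectin receptors share, had the highest level per length of all 37 genes, at 57.1 ± 6.41 FPKM in knockouts and 63.0 ± 8.70 FPKM in controls (SD, n = 3 each). In CPM it had 431, 577 and 571 in knockouts, against 544, 592 and 637 in controls. The groups overlapped, and the log2 fold change was -0.17 ± 0.16 (95% interval -0.53 to 0.20). Itgb1 made up 66.2 ± 4.84% of the summed FPKM of the 8 beta subunits in knockouts and 70.4 ± 3.57% in controls, and Itgb5 made up 22.5 ± 5.32% in knockouts and 19.0 ± 3.22% in controls. Itga6 and Itga8 led the alpha subunits, Itga6 with 33.1 ± 2.59% of the summed alpha FPKM in knockouts and 34.4 ± 2.42% in controls, and Itga8 with 25.0 ± 3.72% in knockouts and 27.4 ± 2.41% in controls.

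**Figure D3:**
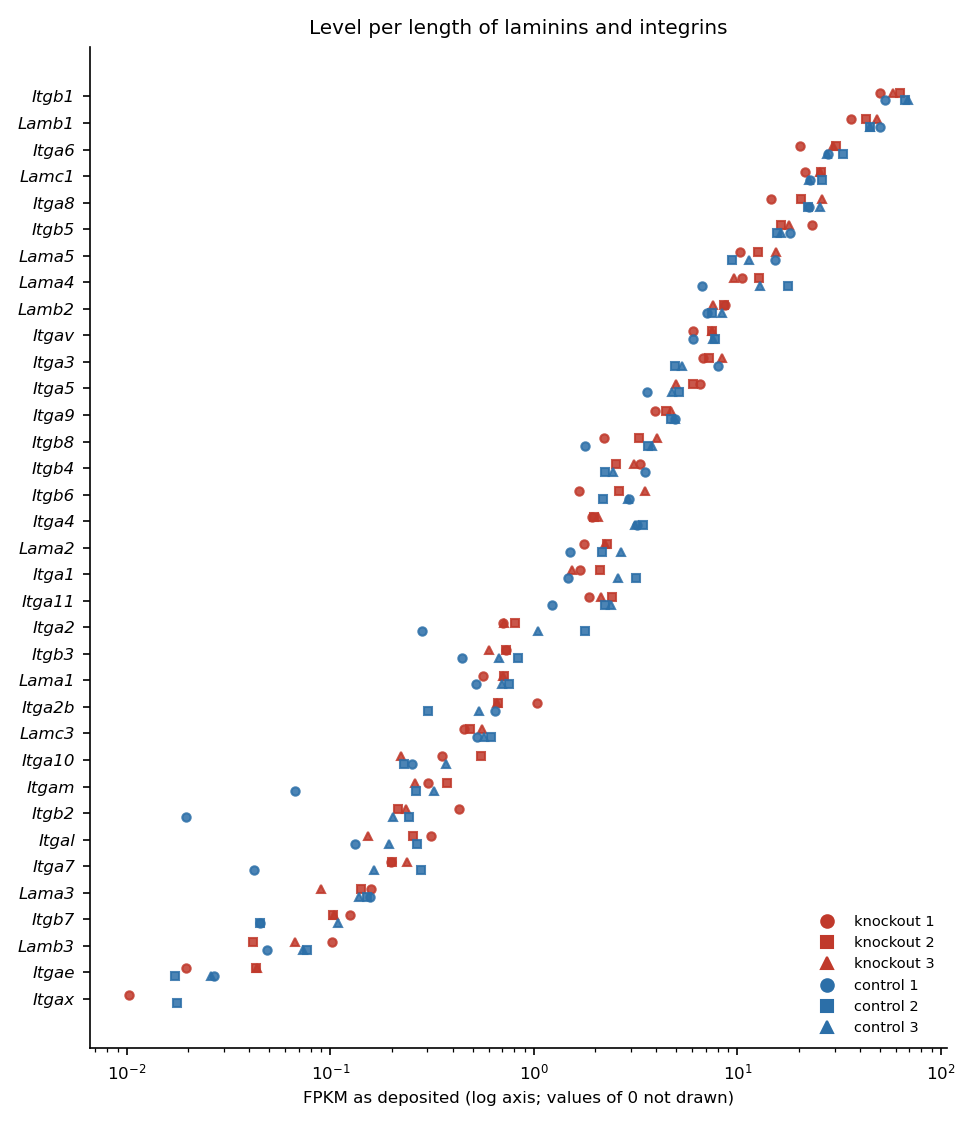
Deposited FPKM (x axis, log scale) of the laminins and integrins, with a point for each knockout and control embryo and genes in order of their mean over the 6 embryos. Itgb1, Lamb1, Itga6, Lamc1 and Itga8 lie at the top in both groups, and Lama3, Itgb7 and Lamb3 lie near the bottom, where values of 0 cannot be drawn.

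Of the laminin-binding integrins, Itga6, whose product pairs with beta 1 or, in hemidesmosomes, with beta 4, had 175, 282 and 287 CPM in knockouts, against 286, 294 and 253 CPM in controls. Knockout 1 was far below the other 5 embryos, which lay between 253 and 294 CPM. The log2 fold change was -0.16 ± 0.20 (95% interval -0.61 to 0.29). The table has 1 transcript row for Itga6, so that the alternative cytoplasmic tails that splicing gives alpha 6 were not told apart. Itgb4, the hemidesmosome subunit, had 42.0, 34.1 and 44.4 CPM in knockouts, against 53.1, 29.1 and 32.8 CPM in controls. The range of the controls enclosed that of the knockouts, and the log2 fold change was 0.07 ± 0.23. Itga3, which pairs with beta 1 and anchors epithelia to laminin, had 73.8, 83.6 and 106 CPM in knockouts, against 104, 56.0 and 61.3 CPM in controls. Control 1 lay among the knockouts and the other controls below them, with a log2 fold change of 0.25 ± 0.24. Without both embryos numbered 1 the log2 fold change of Itga3 was 0.68 (adjusted p = 0.0501, edgeR's quasi-likelihood test). With Xist as a covariate it was -0.0075. Itga7, the laminin receptor subunit of muscle, was low, at 0.212 ± 0.0218 FPKM in knockouts and 0.162 ± 0.119 FPKM in controls, with a 95% interval of the log2 fold change from -0.87 to 1.58.

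The laminin alpha chains were led by Lama5 and Lama4. Lama5, the main alpha chain of many epithelial basement membranes, had 263, 343 and 457 CPM in knockouts, against 463, 249.2 and 308 CPM in controls. The groups overlapped over nearly their whole ranges, and the log2 fold change was 0.06 ± 0.27. Lama4, known as the alpha chain of vessel walls, had 131, 169 and 136 CPM in knockouts, against 99.0, 228 and 171 CPM in controls. Control 1 was the lowest embryo for Lama4 and the highest for Lama5, and the ratio of Lama5 to Lama4 in FPKM was 0.97, 0.98 and 1.61 in knockouts and 2.28, 0.53 and 0.88 in controls. Markers of endothelium summed to 210 to 354 CPM in knockouts and 226 to 449 CPM in controls. Their part in the Lama4 values was not tested.

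The remaining alpha chains were lower. Lama1, the chain of early embryonic basement membranes, had 10.8, 14.8 and 15.5 CPM in knockouts, against 12.1, 15.4 and 14.6 CPM in controls, with a log2 fold change of -0.03 (95% interval -0.49 to 0.43). Lama2, best known from muscle and Schwann cell basement membranes, had a log2 fold change of -0.02. Lama3, the alpha chain of the laminin that anchors epidermis, had 3.28, 3.22 and 2.20 CPM in knockouts, against 3.95, 3.36 and 3.13 CPM in controls. Lama3 overlapped between the groups, with a log2 fold change of -0.26 (95% interval -0.92 to 0.41). By FPKM, Lama5 and Lama4 made up 47.7 ± 6.33% and 41.5 ± 6.30% of the alpha chains in knockouts and 45.0 ± 16.5% and 44.4 ± 15.7% in controls (SD, n = 3 each), and Lama3 made up 0.50 ± 0.18% in knockouts and 0.55 ± 0.09% in controls.

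Of the beta chains, Lamb1, found in most basement membranes, had 430, 541 and 653 CPM in knockouts, against 706, 551 and 566 CPM in controls. The groups overlapped, with a log2 fold change of -0.17 ± 0.19. Lamb2, the chain of synaptic and kidney filter basement membranes, varied little between embryos, with 99.7, 106 and 99.2 CPM in knockouts, against 97.4, 89.9 and 103 CPM in controls. Its log2 fold change of 0.07 had a 95% interval of -0.20 to 0.34. Lamb3, the partner of Lama3 in the epidermal laminin, had 0.839, 0.376 and 0.667 CPM in knockouts, against 0.501, 0.680 and 0.647 CPM in controls, or 28 reads over the knockouts and 35 over the controls. A change in Lamb3 was not detectable at this depth, its interval running from -1.14 to 1.16.

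Of the gamma chains, Lamc1, the common one, had 370, 470 and 501 CPM in knockouts, against 458, 461 and 406 CPM in controls, with a log2 fold change of 0.02 ± 0.15 (95% interval -0.33 to 0.37). Lamc3 had 5.49, 6.33 and 7.54 CPM in knockouts, against 7.65, 7.85 and 7.38 CPM in controls, with a log2 fold change of -0.24 ± 0.22.

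Itga3, Itgb4 and Lama5 were high in control 1, at 1.77, 1.72 and 1.66 times the mean of the other controls, as were the epithelial markers at 1.77 times. Set per 1000 CPM of epithelial markers, a ratio chosen after the values were seen, the controls lay close together, at 55.8 to 60.8 for Itga3, 29.7 to 31.5 for Itgb4 and 259 to 280 for Lama5. The knockouts lay at 56.5 to 68.1 for Itga3, 27.7 to 32.2 for Itgb4 and 202 to 293 for Lama5, and overlapped the controls for all 3 genes. These 3 genes share the markers' rise in control 1, so the division had to bring their controls together. The division also brought the controls of Itga2b closer, from 2.40 to 5.89 CPM to 2.61 to 3.93 per 1000 CPM of markers. It drew the controls of some other members apart. Itga6 controls lay at 253 to 294 CPM, and at 160 to 318 per 1000 CPM of markers. Itgb1 controls lay at 544 to 637 CPM, and at 304 to 642 per 1000 CPM of markers. Itga4, whose ratio is given above, was separated, as were 4.17% of all genes. With the epithelial marker level as a covariate, an alternative also added after the values were seen, none of the 34 passed adjusted p 0.05 in edgeR's test.

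**Figure D4:**
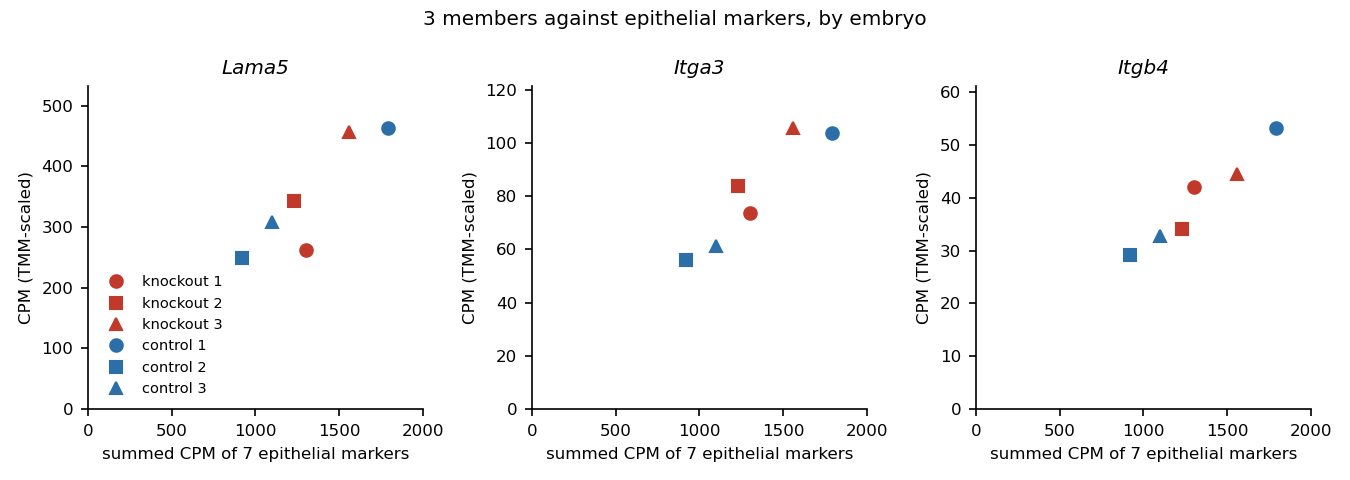
Level of Lama5, Itga3 and Itgb4 in CPM (y axes) against the summed CPM of 7 epithelial markers (x axis) in each embryo. Control 1 is the rightmost point, at 1791 CPM of markers, and relative to the markers the 3 knockouts lie on both sides of the controls for Lama5 and Itgb4. The genes drawn share the markers' rise in control 1. They are not alone in this, as Itga2b is also high in control 1, while some other members, such as Itga6 and Itgb1, do not share the rise.

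The collagen-binding subunits were low to middling in level. Itga1, a receptor subunit for collagen IV, had 22.6, 30.3 and 23.8 CPM in knockouts, against 23.4, 44.6 and 37.0 CPM in controls, with a log2 fold change of -0.45 ± 0.24 (95% interval -0.99 to 0.08). Controls 2 and 3 lay above all other embryos and control 1 among the knockouts. Itga2, the other classical collagen receptor subunit, ranged from 3.2 CPM in control 1 to 17.6 CPM in control 2, and its log2 fold change of -0.48 had an interval from -1.6 to 0.65. Itga10 and Itga11, known from cartilage and mesenchyme, had log2 fold changes of 0.39 and 0.13. Itga1, Itga11 and Itga2 had 0.57, 0.60 and 0.23 times the mean of the other controls in control 1, where mesenchymal markers were at 0.52 times, while Itga10 had 0.94 times. Markers of endothelium (0.60 times), pericytes and smooth muscle (0.59), platelets and megakaryocytes (0.76), leukocytes (0.41) and neurons (0.14) were low in control 1 too. Those of epithelium (1.77), glia (1.13) and muscle (1.67) were not. The part of mesenchyme or of any other cell type in the values of these subunits was not tested.

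The leukocyte integrins were all below 0.3 FPKM on average. Itgb2, the subunit shared by the leukocyte pairs, had 2.52, 1.34 and 1.6 CPM in knockouts, against 0.125, 1.5 and 1.29 CPM in controls. Itgam, the macrophage subunit, had 2.97, 3.92 and 2.8 CPM in knockouts, against 0.752, 2.59 and 3.34 CPM in controls. The 4 tested (Itgb2, Itgb7, Itgam and Itgal) had positive log2 fold changes of 0.22 to 0.86, and every one of their intervals included 0. The 10 leukocyte markers summed to 147 to 176 CPM in knockouts and 61.7 to 150 CPM in controls, with control 1 lowest, and none of them was at 0 or passed the test. Their part in the values of the leukocyte integrins was not tested. The 3 members not tested were also of this group. Itgae had 15 reads over the knockouts and 11 over the controls, and Itgax had 1 over the knockouts and 3 over the controls. Itgad had no read in any embryo, and a count of 0 allows up to 0.029 CPM over the 6 embryos (3 counts of 103303265 reads, counting error only).

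Among the members, knockout 1 was the lowest embryo for 13 of the 34 and the highest for 7, where it was the lowest for 28.8% and the highest for 29.1% of all genes tested. Control 1 was the lowest for 10 and the highest for 6, beside 21.5% and 20.3% of all genes. Control 3 was the lowest for 0 members, beside 13.4% of all genes. The abundant genes Itga6, Itga8, Itgb1, Lamb1 and Lamc1 were lowest in knockout 1, while Itgb5 and Itga5 were highest in it.

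**Figure D5:**
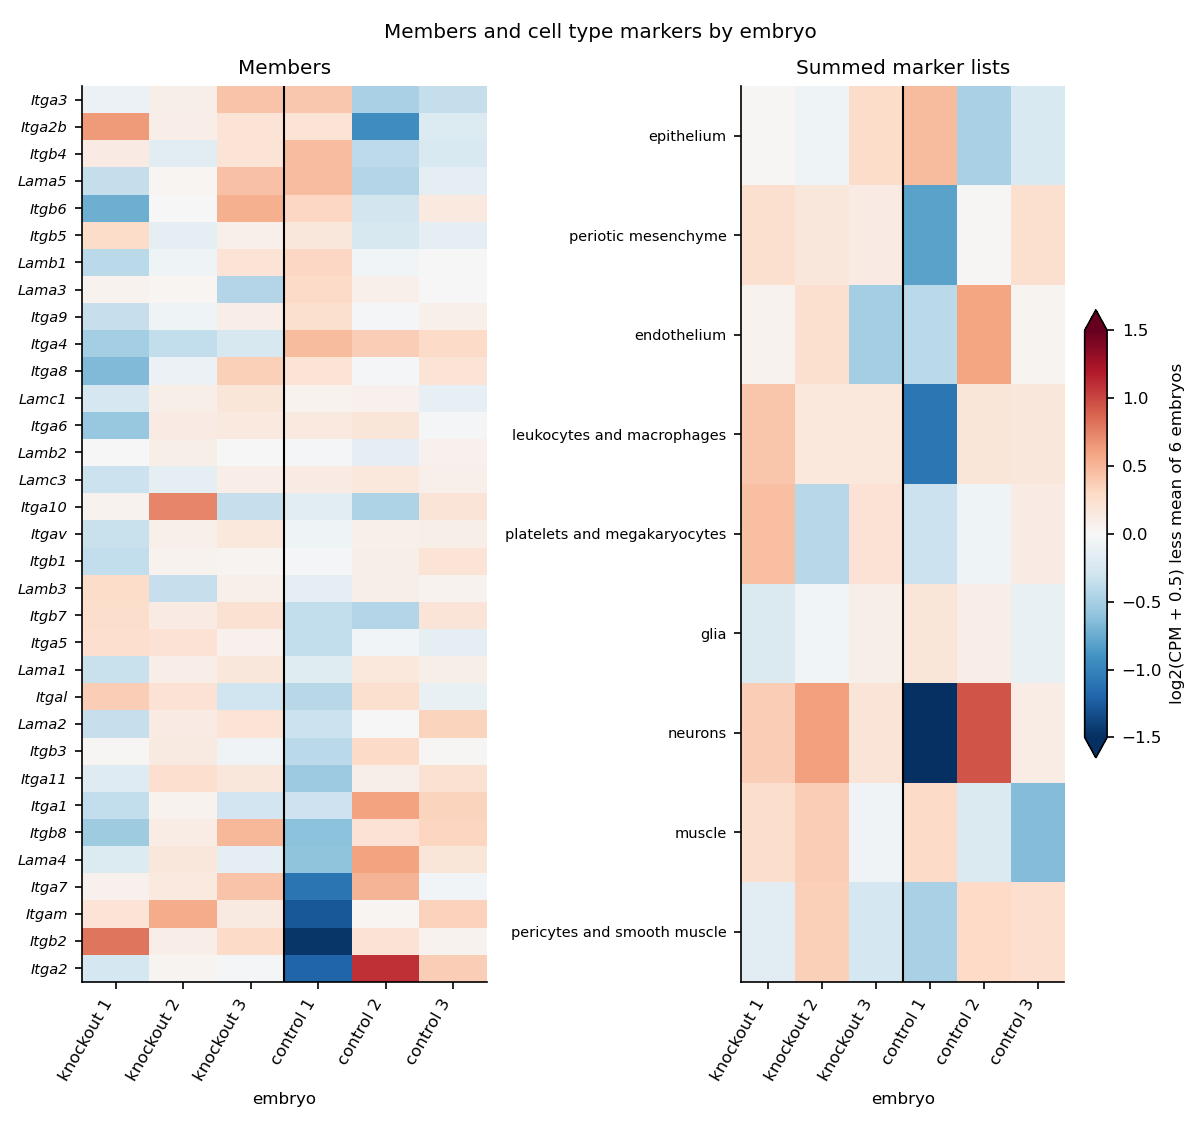
Deviation of members and of each marker list from its mean over the 6 embryos (log2 scale, colour) in knockout and control embryos. Control 1 is low for Itgb2, Itgam, Itga2 and Lama4 as for the leukocyte, neuronal and mesenchymal markers and high for Itga3, Itgb4 and Lama5 as for the epithelial markers, and colours end at 1.5.

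The genes that work with laminins and integrins gave 0 calls in edgeR's quasi-likelihood test in any of 4 lists, and 0 in DESeq2. Of the basement membrane partners (collagen IV chains, nidogens, perlecan, agrin and others), 19 of 20 were tested, 9 with a positive and 10 with a negative log2 fold change, and 3 had an unadjusted p under 0.05 in edgeR's test, which 4.77% of all genes had. The smallest p values belonged to Npnt, given above, and Nid2, a nidogen that links laminin to collagen IV, which averaged 167 ± 16.1 CPM in knockouts and 121 ± 26.2 CPM in controls (SD, n = 3 each), with a log2 fold change of 0.47. Of the adhesion machinery inside the cell (talins, kindlins, hemidesmosome genes and others), 25 of 26 were tested, 12 positive and 13 negative, 2 at an unadjusted p under 0.05 in edgeR's test (4.77% of all genes). Tns1, a tensin that joins integrin tails to actin, averaged 124 ± 7.81 CPM in knockouts and 157 ± 13.5 CPM in controls, with a log2 fold change of -0.34. Zyx, which encodes the adhesion protein zyxin, averaged 106 ± 2.59 CPM in knockouts and 85 ± 9.72 CPM in controls, with a log2 fold change of 0.31.

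Of the 7 laminin receptors that are not integrins, 5 had positive and 2 negative log2 fold changes, and 1 had an unadjusted p under 0.05 in edgeR's test (4.77% of all genes). That gene was Sdc1, a syndecan of epithelia (83.0 ± 6.92 CPM in knockouts and 66.8 ± 7.88 CPM in controls, log2 fold change 0.31). Bcam, a receptor for the Lama5 product, had a log2 fold change of 0.45 ± 0.30. Of the other integrin ligands, 18 of 19 were tested, 11 positive and 7 negative, 4 at an unadjusted p under 0.05 in edgeR's test (4.77% of all genes). Postn, which encodes periostin, a ligand of alpha v integrins, had 220, 416 and 491 CPM in knockouts, against 159, 225 and 204 CPM in controls, with a log2 fold change of 0.94 and an adjusted p of 0.549 in edgeR's test. Knockout 1 lay below control 2 for Postn. Mfge8, an RGD protein that also binds alpha v integrins, averaged 98.4 ± 16.3 CPM in knockouts and 69.9 ± 8.24 CPM in controls, with a log2 fold change of 0.49. The list medians, from -0.04 for the adhesion machinery to 0.09 for the other ligands, lay beside a median of 0.00 over all genes.

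Since ESRP1 regulates splicing, the shares of transcript rows within a gene were compared too. Of the 6 members with several rows, 1 gave a pair that could be tested, Itga9 (NM_133721 and NM_001113514). The further row held 72.8%, 73.2% and 71.0% of the main row's reads in knockouts and 69.4%, 73.1% and 71.4% in controls. These shares overlapped, with a log2 odds difference of -0.07 ± 0.12 (SE) and an adjusted p of 0.937 with limma. Over all 1774 pairs, 0.0564% passed the threshold. Exon choices inside a single row, as in Itga6, cannot be told apart from a change in level in these counts.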

How the data were processed

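The authors deposited read counts per RefSeq transcript row, 1 column per embryo, and FPKM, which per the file headers are scaled by library size and transcript length. Log2 fold changes and p-values with FDR in the authors' deposited table come from edgeR, per the file headers and the submitters' processing notes, which also name mm10. Which aligner and counter were run is not given in the sources used here, and 14 columns stayed unused.

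Of the 28644 rows, the row with the highest read sum stood for each of 22869 genes. Genes were kept by filterByExpr (minimum count 10), scaled by TMM and tested with edgeR 4.0.16's quasi-likelihood F test under R 4.3.3, with Benjamini-Hochberg adjustment over 14717 genes and a threshold of 0.05. DESeq2 1.42.0 was an alternative. Row shares (main less further row, against further row, at least 60 reads, pseudocount 0.5) were tested with limma 3.58.1, and exact permutation tests used scipy 1.17.1. Intervals are 95%. Both tests across features were tested on simulated data. CPM compare embryos within a gene, and FPKM compare genes. Read numbers cover counting error only.

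Values in every embryo are given for Esrp1, the 10 members of smallest p, the 10 of highest mean FPKM, and a set of chains and subunits named whatever they did (Lama3, Lamb3, Lama5, Lamb1, Lamc1, Lama1, Itga3, Itga6, Itgb4, Itgb1, Itga8, Itgav, Itgb6), and, of each pathway list, the 2 genes of smallest p are named. Vcam1, Fn1, Tnc, Fos, Xist and Ddx3y were named outside this rule, as partners or technical values, after their values were seen. Members, gene lists and this rule were chosen with earlier results of these data known. A result that this rule covers is left out of the text and figures.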

Additional observations from a re-analysis of the deposited data

How the results depend on the processing

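Calls over all genes depended on the processing, with 22 in edgeR's quasi-likelihood test, 166 in DESeq2, 6 with embryo number as a replicate block, 6 with Xist as a covariate, 159 without both embryos numbered 1, 41 with the epithelial marker level as a covariate (chosen after seeing the data) and 0 to 30 with an embryo left out (12 without knockout 1, 0 without knockout 2, 4 without knockout 3, 30 without control 1, 13 without control 2 and 0 without control 3). Called members numbered 0 in edgeR's test and with any embryo left out, 1 in DESeq2 (Itga4) and 2 without both embryos numbered 1 (Itga4 among them). Itga4 kept its sign under every alternative run, with log2 fold changes of -0.91 to -0.65, and edgeR's adjusted p was 0.205 under the block, 0.0618 with the epithelial covariate, 0.0738 without the count filter and 0.139 to 0.375 with an embryo left out. Called row pairs numbered 1 in the fit reported, 0 under the block, 9 with Xist and 0 to 1 with an embryo left out. Deviations of same-numbered embryos had correlations of 0.08, 0.18 and 0.03, against -0.22 to 0.16 for knockouts and controls of different numbers. The labels do not state that the number marks a pair, so it was used only in the block alternative.

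Signs changed for 20 members under some alternative, none with a log2 fold change over 0.48 either way in the fit reported, and 14 kept theirs under all. Lamb3 was -0.0077 with RLE scaling, -0.0025 without the filter, -0.027 under the block, -0.0018 with rows summed and -0.38 without both embryos numbered 1. Without those embryos Itgal was -0.12, Itgb3 -0.13, Lama1 0.0077, Itgav 0.033, Itga8 0.045, Itga6 0.048, Lamb1 0.085 and Itgb6 0.34. With Xist, Itga3 was -0.0075, Itga11 -0.19, Lamc1 -0.28, Lama5 -0.39 and Itgb8 -0.63. With the epithelial covariate, Lamc1 was -0.00054, Itgb4 -0.019, Lama5 -0.053, Lama1 0.015, Lama2 0.0485, Lama4 0.0491 and Itga2 0.16. With an embryo left out, ranges were -0.013 to 0.63 for Itga10, -0.078 to 0.28 for Itga11, -0.90 to 0.13 for Itga2, -0.28 to 0.026 for Itga6, -0.058 to 0.94 for Itga7, -0.49 to 0.011 for Itga8, -0.15 to 0.0805 for Itgav, -0.13 to 0.23 for Itgb3, -0.10 to 0.37 for Itgb4, -0.40 to 0.21 for Itgb6, -0.21 to 0.27 for Itgb8, -0.13 to 0.10 for Lama1, -0.16 to 0.16 for Lama2, -0.46 to 0.10 for Lama4, -0.17 to 0.35 for Lama5, -0.26 to 0.29 for Lamb3 and -0.078 to 0.13 for Lamc1, and the members' median ranged from -0.09 to 0.08. The cause of these differences was not tested. For members of few reads, such as Lamb3, Itgb7 and Itgb2, the 95% intervals reached past a 2-fold change.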
